A study of Cricetulus griseus with 9 samples.

Results

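The 117 genes described here carry cells through mitosis. They code for mitotic kinases and cyclins, the spindle checkpoint, the anaphase promoting complex, condensin, cohesin, topoisomerase II, kinetochores, the spindle, cytokinesis and the centrosome. Of the 6753 genes in a deposited table of normalized CPM, read counts that the authors scaled for library size, they are the rows whose symbols matched a list of gene names and name stems such as Aurk, Bub, Cenp, Anapc, Ncap, Smc, Stag and Cep. The rule uses symbols and no measured value. All 117 passed the filter on low values, a mean of 1 CPM, which no gene of the table could fail, as the lowest mean was 20.4 CPM. The name stems also took in Aurkaip1, whose protein binds Aurora A and is a part of the small subunit of the mitochondrial ribosome, so the set is not purely mitotic.

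RNA came from MI5-4 cells, a subline of the Chinese hamster ovary (CHO) cell line grown in medium with glucose and serum, and was sequenced as mRNA libraries. The WTHK2 group (n = 3) was labelled as expressing wild-type HK2, hexokinase 2. The LAC group (n = 3) was empty-vector cells given 10 mM sodium lactate for 24 h, and the EV group (n = 3) was cells with an empty vector that the submitters describe as hexokinase-null. All 3 groups share the MI5-4 background. The labels used here do not state the promoter or species of the HK2 construct, nor that replicates were separate cultures, so p-values reflect no more than the variation among these libraries.

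Mitosis is driven by Cdk1 bound to A- and B-type cyclins, with Aurora and Polo kinases acting at centrosomes, centromeres and the midzone. Cohesin holds sister chromatids together from S phase on, and condensin and topoisomerase II compact and disentangle them. Once every kinetochore is attached to spindle microtubules, the spindle checkpoint releases Cdc20, and the anaphase promoting complex, a ubiquitin ligase, marks cyclin B and the protector of cohesin cleavage for destruction. Transcripts of many of these genes peak in G2 and M phase. In bulk libraries such as these, a smaller share of cells in those phases and less RNA per cell cannot be told apart.

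Libraries are named by group and replicate, as in EV 2. Effective library sizes ran from 18050959 to 26238659 reads, and the member with the lowest mean over the 9 libraries, Cep19, stood at 22.3 CPM, and no gene of the table rested on fewer than 304 reads in a library. The median coefficient of variation of a member among replicates was 4.52% in libraries labelled WTHK2, 4.21% in LAC and 3.33% in EV. Hk2 itself was not higher in the libraries labelled WTHK2 (65.3 ± 1.33 CPM) than in EV (67.3 ± 2.11 CPM; SD, n = 3 each), with a log2 fold change of -0.044 (limma, adjusted p = 0.522). Hk2 transcript was read in every EV library too, so its level bears out neither the null label of EV nor the label of WTHK2, and each direction given below rests on those labels. Of 3 fibroblast-type markers, Vim and Col3a1 were listed, and the 4 leukocyte and 4 epithelial markers looked for had 0 rows. No gene of the table had a mean under 20.4 CPM, so a marker without a row may still have been expressed. The 4 mitochondrially encoded transcripts listed had median log2 differences from the EV mean of 0.40 to 0.73 in libraries labelled WTHK2 and 0.45 to 0.80 in LAC, highest in replicate 1 of each. A hand-written list of genes for proteins of more than 2500 residues stood at -0.29 to -0.17 and -0.32 to -0.22 in the same libraries.

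The first question was whether the mitotic genes as a set differed from EV in the libraries labelled WTHK2 and in LAC. They did not stand out in number. In the limma fit across all genes (Benjamini-Hochberg adjusted p under 0.05), 16 of 117 rose and 27 fell in the libraries labelled WTHK2, together 36.8%, against 46.4% of all genes called in that comparison (21.0% higher and 25.4% lower). In LAC, 23 rose and 26 fell, together 41.9%, against 49.5% of all genes called (22.4% higher and 27.1% lower). The median log2 fold change of the members was -0.037 in the libraries labelled WTHK2 and 0.016 in LAC, beside -0.0082 and -0.0035 over all genes. Of members called, 37.2% were higher in the libraries labelled WTHK2 and 46.9% in LAC, but 53.8% and 62.3% after rescaling (each library set to the same median), which moved the median log2 fold change of all genes by 0.036 and 0.041. Of all genes called before rescaling, 1417 of 3131 were higher in the libraries labelled WTHK2 and 1512 of 3341 in LAC. Rescaling shifted every gene, and the balance over all genes after it was not counted. Groups did not overlap for 57 members (48.7%) between libraries labelled WTHK2 and EV and for 63 (53.8%) between LAC and EV, against 57.1% and 57.8% of all genes.

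Changes were small. Aurkaip1, Cep350 and Ncapg2 were the members with a fold over 1.5 in either direction in the libraries labelled WTHK2, and Cep350 was the member over it in LAC. The median fold of called members was 1.16 in the first comparison and 1.17 in the second, whichever the direction. Both comparisons use the same 3 EV libraries, so their values are given side by side and not counted as support for each other. The plot by role shows topoisomerase II, cohesin and condensin on the lower side and the Aurora and Polo group on the higher side of 0 in both comparisons.

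**Figure D1:**
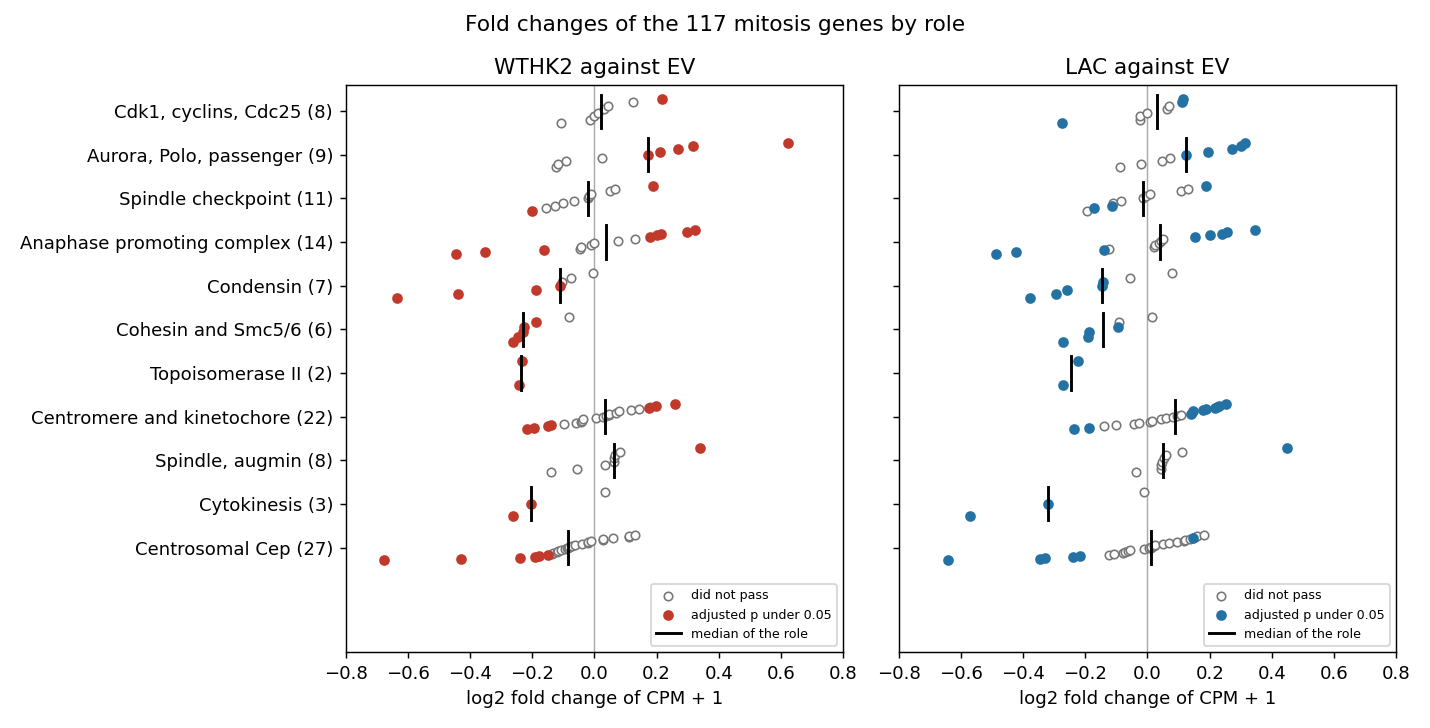
Log2 fold change of CPM + 1 (horizontal axis) of each of the 117 members by role (number of members in parentheses), for WTHK2 against EV (left) and LAC against EV (right). Filled points passed an adjusted p of 0.05, open points did not, and the black bar is the median of the role. Medians of condensin are -0.11 and -0.15, of cohesin with Smc5/6 -0.23 and -0.14, and of topoisomerase II -0.24 and -0.25. Those of cytokinesis are -0.20 and -0.32, and of the Aurora and Polo group 0.17 and 0.12.

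Condensin genes were lower than in EV or did not pass. Of 7 members, 4 fell and 0 rose in the libraries labelled WTHK2 (median log2 fold change -0.11), and 5 fell and 0 rose in LAC (median -0.15). Those lower were 57.1% and 71.4%, against 25.4% and 27.1% of all genes. Condensin is a ring of the ATPases Smc2 and Smc4 closed by one of a pair of subunit sets, condensin I (Ncapd2, Ncapg, Ncaph) or condensin II (Ncapd3, Ncapg2 and a kleisin). Ncapg2, the HEAT-repeat subunit of condensin II, had 97.9, 103 and 108 CPM in libraries labelled WTHK2, 128, 135 and 129.5 CPM in LAC, and 167, 165 and 149.8 CPM in EV. No value of 1 group overlapped those of another, and the order was libraries labelled WTHK2 lowest and EV highest. Its log2 fold change was -0.64 (SE 0.050, adjusted p = 1.16e-08) in the libraries labelled WTHK2 and -0.29 (SE 0.050, adjusted p = 8.07e-05) in LAC (limma).

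Smc2, the core ATPase that both condensins need, had 208, 221 and 221 CPM in libraries labelled WTHK2, 213, 244 and 220.5 CPM in LAC, and 299.8, 298 and 283 CPM in EV. The EV libraries stood above all 6 others, and the other groups overlapped each other. Smc2 fell, with log2 fold changes of -0.44 (SE 0.046, adjusted p = 4.37e-07) in libraries labelled WTHK2 and -0.38 (SE 0.046, adjusted p = 3.73e-06) in LAC. Its partner Smc4 averaged 143 ± 5.84 CPM in libraries labelled WTHK2, 136 ± 5.26 CPM in LAC and 151 ± 9.12 CPM in EV and fell in LAC (log2 fold change -0.15, adjusted p = 0.0185), while the difference in libraries labelled WTHK2 did not pass (-0.074, adjusted p = 0.223). Ncapg, of condensin I, had 48.9, 49.4 and 49.4 CPM in libraries labelled WTHK2, 43.7, 51.8 and 45.2 CPM in LAC, and 55.4, 59.8 and 53.6 CPM in EV, and Ncapd3, of condensin II, had 146, 134 and 141 CPM in libraries labelled WTHK2, 134, 140.1 and 138 CPM in LAC, and 151, 149 and 155 CPM in EV. Both were below EV in every library of the other groups. Ncapg fell with log2 fold changes of -0.19 (adjusted p = 0.0263) in libraries labelled WTHK2 and -0.26 (adjusted p = 0.00323) in LAC, and Ncapd3 with -0.11 (adjusted p = 0.0422) in libraries labelled WTHK2 and -0.14 (adjusted p = 0.00903) in LAC. Ncaph, the condensin I kleisin, lay at the threshold in libraries labelled WTHK2 (-0.10, adjusted p = 0.0506). Ncapd2 of condensin I averaged 382 ± 22.2 CPM in libraries labelled WTHK2, 404 ± 4.22 CPM in LAC and 382 ± 6.37 CPM in EV, with log2 fold changes of -0.0036 and 0.080 against EV that did not pass.

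Fewer condensin genes passed on another scale. After rescaling, 2 of 7 fell in the libraries labelled WTHK2, and in LAC 3 fell and 1, Ncapd2, was higher. Leaving out EV 1, EV 2, WTHK2 2 or WTHK2 3 also left 2 in the libraries labelled WTHK2. Under each of these settings those genes were Ncapg2 and Smc2. In libraries labelled WTHK2, condensin calls that did not pass on leaving out 1 library or on rescaling, each with its largest adjusted p, were Ncapd3 without EV 1, EV 2, EV 3, WTHK2 2 or WTHK2 3 or after rescaling (0.192) and Ncapg without EV 1, EV 2, WTHK2 1, WTHK2 2 or WTHK2 3 or after rescaling (0.137). In LAC they were Ncapd3 after rescaling (0.0531) and Smc4 without EV 1, LAC 1 or LAC 3 or after rescaling (0.137).

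Cohesin genes fell together. The 4 members of the ring and its HEAT-repeat subunits, Smc1a, Smc3, Stag1 and Stag2, were each lower in both groups than in EV, with no overlap with EV in any of them. Such non-overlap was common: 57.1% of all genes in the libraries labelled WTHK2 and 57.8% in LAC did not overlap EV. Of all genes, 25.4% and 27.1% were called lower. Smc3, an ATPase of the ring, had 300.4, 292 and 281 CPM in libraries labelled WTHK2, 313, 335 and 320.4 CPM in LAC, and 346, 345 and 344 CPM in EV. The EV libraries were nearly equal, LAC stood below them and the libraries labelled WTHK2 lowest, with no overlap between any of the groups. Its log2 fold change was -0.24 (SE 0.037, adjusted p = 2.97e-05) in the libraries labelled WTHK2 and -0.10 (SE 0.037, adjusted p = 0.0369) in LAC (limma). The smaller fall in LAC was -0.055 (adjusted p = 0.223) after rescaling. Genes beside Smc3 had medians close to its own: its 14 nearest listed neighbours on the assembly CriGri-PICRH-1.0, used for gene order alone, had median log2 fold changes of -0.26 in the libraries labelled WTHK2 and -0.089 in LAC, both against EV, and of -0.14 in the libraries labelled WTHK2 against LAC. The part of position in the fall of Smc3 was not tested.

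Smc1a, the partner ATPase, had 210.1, 218 and 217 CPM in libraries labelled WTHK2, 212, 229.9 and 238 CPM in LAC, and 264, 268 and 243 CPM in EV, and fell, with log2 fold changes of -0.26 (adjusted p = 1.28e-04) in libraries labelled WTHK2 and -0.19 (adjusted p = 0.00215) in LAC. Stag2 had 160.3, 184 and 163 CPM in libraries labelled WTHK2, 165, 176 and 178 CPM in LAC, and 202, 195 and 196 CPM in EV, with -0.23 (adjusted p = 8.63e-04) in libraries labelled WTHK2 and -0.19 (adjusted p = 0.00323) in LAC. For Stag1 the values were 92.6, 87.2 and 86.2 CPM in libraries labelled WTHK2, 78.8, 86.0 and 86.2 CPM in LAC, and 106, 103 and 94.6 CPM in EV, with -0.19 (adjusted p = 0.00819) in libraries labelled WTHK2 and -0.27 (adjusted p = 4.36e-04) in LAC. In each of these 3 genes every library of both groups stood below every EV library. In the same gene order, the 14 listed neighbours of Smc1a had median log2 fold changes of -0.11 in libraries labelled WTHK2 and -0.10 in LAC. Those of Stag2 had -0.094 and -0.14, and those of Stag1 -0.023 and 0.018. The part of position in these falls was not tested. Smc5 and Smc6 form a separate complex that acts in DNA repair. Smc5 had 90.9, 81.2 and 70.7 CPM in libraries labelled WTHK2, 98.7, 98.4 and 90.0 CPM in LAC, and 97.4, 91.9 and 94.4 CPM in EV. It fell in the libraries labelled WTHK2 (-0.23, adjusted p = 0.00859), without overlap, and overlapped EV in LAC (0.016, adjusted p = 0.862). The 14 listed neighbours of Smc5 had medians of -0.13 in libraries labelled WTHK2 and -0.0055 in LAC. Smc6 averaged 221 ± 4.23 CPM in libraries labelled WTHK2, 219 ± 5.49 CPM in LAC and 234 ± 7.63 CPM in EV and passed in neither comparison. Cohesin and Smc5/6 calls that did not pass on leaving out 1 library or on rescaling were, in libraries labelled WTHK2, Smc5 without WTHK2 3 (0.0798) and Stag1 without EV 1 (0.0592). Those in LAC were Smc3 without EV 1, EV 2, EV 3, LAC 1 or LAC 3 or after rescaling (0.223).

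Topoisomerase II fell in both forms. Top2a, the form of cycling cells and the member with the highest mean CPM, had 769, 783 and 754 CPM in libraries labelled WTHK2, 741, 798 and 720.5 CPM in LAC, and 921, 923 and 882 CPM in EV. The 6 libraries of the other groups lay below all EV libraries, and overlapped among themselves. The log2 fold changes were -0.24 (SE 0.037, adjusted p = 3.23e-05) in the libraries labelled WTHK2 and -0.27 (SE 0.037, adjusted p = 9.59e-06) in LAC (limma). Top2b, the form also made by cells that do not divide, had 179.9, 177 and 166 CPM in libraries labelled WTHK2, 171, 188 and 168 CPM in LAC, and 207, 210.4 and 197 CPM in EV, with log2 fold changes of -0.23 (adjusted p = 4.79e-04) in libraries labelled WTHK2 and -0.22 (adjusted p = 6.13e-04) in LAC. In libraries labelled WTHK2 the 95% intervals were -0.32 to -0.16 for Top2a and -0.33 to -0.13 for Top2b, and all 4 calls passed in every alternative tried.

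Taken as 15 genes, a grouping made after their values were seen, condensin, cohesin, Smc5/6 and topoisomerase II counted 11 lower and 0 higher in each comparison with EV, with medians of -0.23 in the libraries labelled WTHK2 and -0.19 in LAC. Those lower were 73.3%, against 25.4% of all genes in the libraries labelled WTHK2 and 27.1% in LAC. Of all genes, 21.0% and 22.4% were higher. Since the grouping followed the values, these counts are no test of it. The other 102 members counted 16 higher and 16 lower, then 23 higher and 15 lower, with medians of -0.012 and 0.042. The 15-gene median stood below the EV mean in each of the 6 libraries, at -0.25 to -0.19 in libraries labelled WTHK2 and at -0.26 to -0.12 in LAC. Genes for long proteins moved the same way in the same libraries, with 39 of 48 lower and 0 higher (median -0.23) in libraries labelled WTHK2 and 44 of 48 lower and 0 higher (median -0.28) in LAC. The part of transcript or protein length in these falls was not tested. Without replicate 1 of both groups, the libraries highest in mitochondrially encoded transcripts, the 15 genes counted 11 lower in libraries labelled WTHK2 and 10 lower in LAC. After rescaling they counted 9 lower and 0 higher in libraries labelled WTHK2, and 8 lower and 1 higher in LAC.

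**Figure D2:**
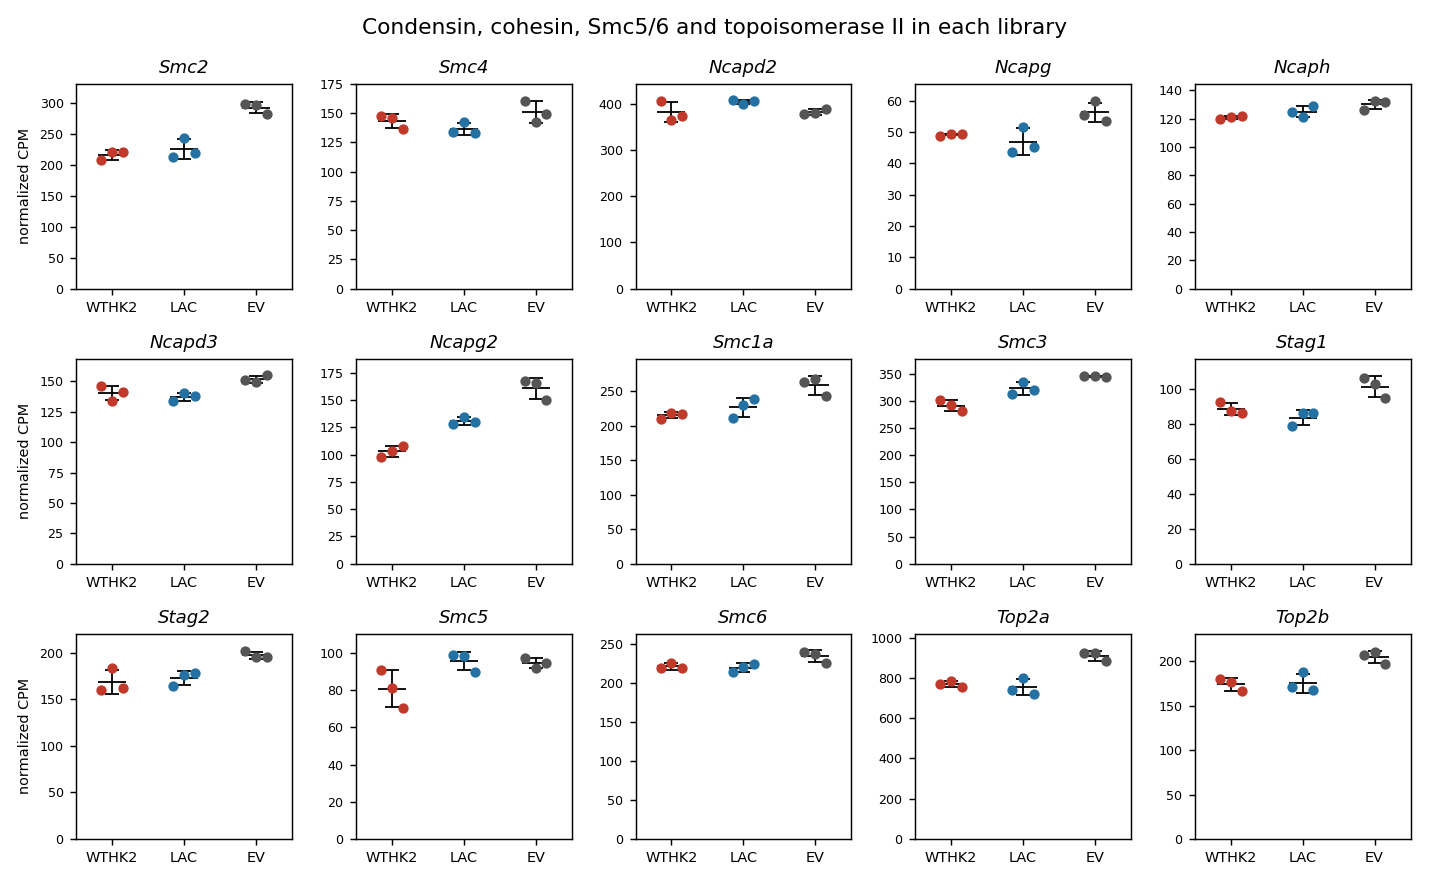
Normalized CPM (vertical axes, from 0) of the 15 genes of condensin, cohesin, Smc5/6 and topoisomerase II in the WTHK2, LAC and EV libraries. Each point is a library, and bars are the mean ± SD of 3 libraries. Ncapg2 averaged 103 ± 4.86 CPM in WTHK2, 131 ± 3.60 CPM in LAC and 161 ± 9.51 CPM in EV, and Ncapd2 382 ± 22.2 CPM in WTHK2, 404 ± 4.22 CPM in LAC and 382 ± 6.37 CPM in EV.

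Subunits of the anaphase promoting complex went in opposite directions. Of 14 members (the subunits and the activator Cdc20), 5 rose and 3 fell in the libraries labelled WTHK2, and also 5 rose and 3 fell in LAC. In each comparison 35.7% were higher and 21.4% lower. Of all genes, 21.0% were higher and 25.4% lower in the libraries labelled WTHK2, and 22.4% and 27.1% in LAC. Calls in both directions were therefore not particular to this role. Anapc1 and Cdc27 fell in both comparisons, and Anapc2, Anapc11, Anapc13 and Anapc15 rose in both. Anapc1, the large scaffold subunit, had 331, 361 and 354 CPM in libraries labelled WTHK2, 326, 358 and 331 CPM in LAC, and 483, 491 and 450.2 CPM in EV. No library of either group reached the EV range. Its log2 fold change was -0.45 (SE 0.044, adjusted p = 1.77e-07) in the libraries labelled WTHK2 and -0.49 (SE 0.044, adjusted p = 2.76e-07) in LAC (limma). Cdc27, of the TPR arm that binds the activator, had 67.3, 77.2 and 72.7 CPM in libraries labelled WTHK2, 62.3, 80.3 and 65.1 CPM in LAC, and 88.0, 101 and 88.6 CPM in EV, again below EV throughout. It fell, with log2 fold changes of -0.35 (SE 0.078, adjusted p = 0.00111) in libraries labelled WTHK2 and -0.42 (SE 0.078, adjusted p = 1.92e-04) in LAC. Of the other TPR subunits, Cdc23 fell in libraries labelled WTHK2 (-0.16, adjusted p = 0.0295) and Cdc16 in LAC (-0.14, adjusted p = 0.010).

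Anapc11, the RING subunit that carries out the transfer of ubiquitin, had 104, 109 and 109 CPM in libraries labelled WTHK2, 109, 107 and 114 CPM in LAC, and 92.3, 95.6 and 88.9 CPM in EV. All values of both groups were above EV, with log2 fold changes of 0.21 (adjusted p = 0.00111) in libraries labelled WTHK2 and 0.26 (adjusted p = 2.01e-04) in LAC. Its cullin partner Anapc2 averaged 136 ± 3.79 CPM in libraries labelled WTHK2, 134 ± 6.50 CPM in LAC and 120.1 ± 0.725 CPM in EV and rose, with log2 fold changes of 0.18 (adjusted p = 0.00286) in libraries labelled WTHK2 and 0.15 (adjusted p = 0.00785) in LAC. Anapc13, a small subunit that steadies the TPR arm, had 43.0, 42.5 and 42.5 CPM in libraries labelled WTHK2, 38.1, 37.1 and 42.4 CPM in LAC, and 35.1, 32.8 and 33.8 CPM in EV. Anapc15, a small subunit needed for the turnover of the checkpoint complex, had 31.5, 29.2 and 29.6 CPM in libraries labelled WTHK2, 29.5, 29.0 and 35.2 CPM in LAC, and 23.8, 23.1 and 25.96 CPM in EV. Both stood above EV in all 6 libraries. Anapc13 rose, with log2 fold changes of 0.32 (adjusted p = 5.99e-04) in libraries labelled WTHK2 and 0.20 (adjusted p = 0.0171) in LAC, and Anapc15 with 0.30 (adjusted p = 0.00577) in libraries labelled WTHK2 and 0.35 (adjusted p = 0.00173) in LAC. Anapc16 rose in LAC (0.24, adjusted p = 0.0201). Anapc4, Anapc5, Anapc7 and Cdc26 passed in neither comparison, with log2 fold changes between -0.047 and 0.075. Single libraries or rescaling ended some of these calls, in libraries labelled WTHK2 Cdc23 without EV 2, EV 3, WTHK2 2 or WTHK2 3 or after rescaling (0.137). In LAC the same held for Anapc13 without EV 2 or LAC 3 (0.102); Anapc16 without EV 2 or LAC 1 (0.143); Anapc2 without LAC 1 (0.0612); and Cdc16 without EV 2 or after rescaling (0.0602).

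Cdc20, the activator that the checkpoint holds back, differed between the groups. It had 279.5, 279 and 279 CPM in libraries labelled WTHK2, 246, 246 and 248 CPM in LAC, and 243, 247 and 239 CPM in EV. The libraries labelled WTHK2 stood within 1 CPM of each other and above all others, and LAC overlapped EV. The log2 fold change was 0.20 (SE 0.034, adjusted p = 1.07e-04) in the libraries labelled WTHK2 and 0.022 (SE 0.034, adjusted p = 0.615) in LAC (limma). In the direct comparison of the libraries labelled WTHK2 with LAC it was 0.18 (SE 0.034, adjusted p = 0.00108).

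**Figure D3:**
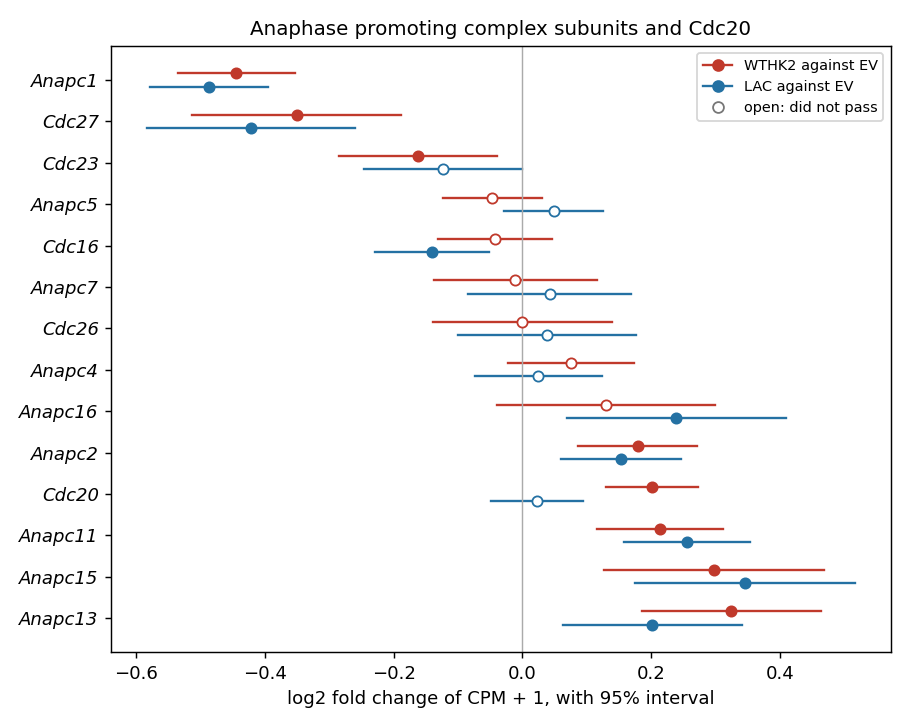
Log2 fold changes of CPM + 1 with 95% intervals (horizontal axis) of the 13 subunits of the anaphase promoting complex and of Cdc20, for WTHK2 against EV (red, upper of each pair) and LAC against EV (blue, lower). Filled points passed an adjusted p of 0.05. Anapc1 is at -0.45 and -0.49, Anapc15 at 0.30 and 0.35, and Cdc20 at 0.20 and 0.022.

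Few genes of mitotic entry passed. Of 8 genes for Cdk1, cyclins and Cdc25 phosphatases, 1 rose and 0 fell in the libraries labelled WTHK2, and 2 rose and 1 fell in LAC. Those called were 12.5% and 37.5%, against 46.4% and 49.5% of all genes. Ccnb2, a B-type cyclin, had 163, 172 and 170.0 CPM in libraries labelled WTHK2, 159, 149 and 162 CPM in LAC, and 146, 142 and 146 CPM in EV. EV was lowest with no overlap, and the log2 fold changes were 0.22 (adjusted p = 3.82e-04) in libraries labelled WTHK2 and 0.11 (adjusted p = 0.0339) in LAC. CCNB1, the main partner of Cdk1 in mitosis, had 241, 263 and 242 CPM in libraries labelled WTHK2, 231, 249 and 248 CPM in LAC, and 254, 246 and 239.7 CPM in EV. All groups overlapped, and neither log2 fold change passed (0.012, 95% interval -0.078 to 0.10, in libraries labelled WTHK2 and -0.023, -0.11 to 0.066, in LAC).

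Cdk1, the mitotic kinase itself, had 206, 215 and 207 CPM in libraries labelled WTHK2, 217, 217 and 222 CPM in LAC, and 209.9, 200.2 and 198 CPM in EV. LAC stood above EV throughout, and the libraries labelled WTHK2 overlapped EV. It rose in LAC, with a log2 fold change of 0.11 (adjusted p = 0.0223) and did not pass in libraries labelled WTHK2 (0.044, adjusted p = 0.358). Ccna2, the cyclin of S phase and early mitosis, went the other way, with 181, 205 and 209 CPM in libraries labelled WTHK2, 162, 188 and 179 CPM in LAC, and 210.4, 217 and 212 CPM in EV. Every library of both groups lay below EV. Its log2 fold change was -0.28 (SE 0.054, adjusted p = 3.44e-04) in LAC, and -0.11 (SE 0.054, adjusted p = 0.108) in the libraries labelled WTHK2, which did not pass. Cdc25a and CDC25B, the phosphatases that activate cyclin-dependent kinases, did not pass. Cdc25a averaged 116 ± 5.82 CPM in libraries labelled WTHK2, 117 ± 3.29 CPM in LAC and 118 ± 6.47 CPM in EV, and CDC25B averaged 152 ± 6.77 CPM in libraries labelled WTHK2, 149.6 ± 6.70 CPM in LAC and 152 ± 2.14 CPM in EV. Nor did the E-type cyclins Ccne1 and Ccne2, which act at entry into S phase, pass, with log2 fold changes of 0.12 and 0.032 in libraries labelled WTHK2 and 0.063 and 0.069 in LAC. Calls of this role in LAC that did not pass without 1 library were Ccnb2 without EV 1, EV 2, EV 3, LAC 1 or LAC 3 (0.148) and Cdk1 without EV 2, EV 3 or LAC 3 (0.0903).

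The Aurora and Polo group held 9 members, among them the scaffold Incenp and Aurkaip1, which are not kinases. Of the 9, 5 rose and 0 fell in each comparison with EV, Aurkaip1 among them (medians over the 9 of 0.17 and 0.12). The share higher was 55.6% in each, against 21.0% and 22.4% of all genes. In the libraries labelled WTHK2, another 3 members, Incenp, Plk2 and Plk4, stood below every EV library, with log2 fold changes of -0.093, -0.12 and -0.12 that did not pass (adjusted p = 0.0742, 0.0601 and 0.0636). Aurka, the Aurora kinase of centrosomes and spindle poles, had 135, 146 and 134 CPM in libraries labelled WTHK2, 136, 123 and 134 CPM in LAC, and 109.8, 118 and 116 CPM in EV. The 6 libraries of both groups stood above EV, and the log2 fold changes were 0.27 (adjusted p = 2.22e-04) in libraries labelled WTHK2 and 0.19 (adjusted p = 0.00304) in LAC. Plk1, the mitotic Polo kinase, had 263, 263 and 252 CPM in libraries labelled WTHK2, 235, 229 and 247 CPM in LAC, and 232, 229 and 227 CPM in EV. It rose in libraries labelled WTHK2 (0.17, adjusted p = 0.00112) with no overlap with EV, while LAC overlapped EV (0.046, adjusted p = 0.334).

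Aurkb, the kinase of the chromosomal passenger complex, averaged 48.9 ± 2.05 CPM in libraries labelled WTHK2, 50.7 ± 2.81 CPM in LAC and 48.1 ± 0.528 CPM in EV, and its scaffold Incenp averaged 169 ± 7.27 CPM in libraries labelled WTHK2, 178 ± 3.95 CPM in LAC and 180.2 ± 4.31 CPM in EV. Neither passed in either comparison. Aurkc, an Aurora kinase close in sequence to Aurkb, had 52.2, 52.3 and 47.1 CPM in libraries labelled WTHK2, 52.6, 51.5 and 57.2 CPM in LAC, and 40.3, 48.4 and 42.0 CPM in EV. It rose in LAC (0.30, adjusted p = 0.00175) and in libraries labelled WTHK2 (0.21, adjusted p = 0.0196), where it overlapped EV. How reads shared by Aurkb and Aurkc were counted is not given in the sources used here. Plk3, a Polo-like kinase of stress responses, had 31.2, 28.2 and 30.7 CPM in libraries labelled WTHK2, 31.5, 28.7 and 27.3 CPM in LAC, and 25.7, 22.1 and 24.1 CPM in EV, with log2 fold changes of 0.32 (adjusted p = 0.00329) in libraries labelled WTHK2 and 0.27 (adjusted p = 0.00840) in LAC. Plk2, another Polo-like kinase outside mitosis, had 79.1, 79.8 and 76.7 CPM in libraries labelled WTHK2, 93.7, 90.3 and 95.05 CPM in LAC, and 88.6, 81.1 and 86.2 CPM in EV. It passed against EV in LAC (0.12, adjusted p = 0.0431). Plk4, which starts centriole duplication, averaged 88.6 ± 5.51 CPM in libraries labelled WTHK2, 90.8 ± 5.23 CPM in LAC and 96.6 ± 1.61 CPM in EV and did not pass. Of these kinases, the calls that did not pass without 1 library were, in libraries labelled WTHK2, Aurkc without EV 1, EV 3, WTHK2 1 or WTHK2 2 (0.117). For LAC they were Plk2 without EV 2, EV 3, WTHK2 2, LAC 1 or LAC 3 (0.203) and Plk3 without EV 2 or LAC 1 (0.0588).

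Aurkaip1 had the largest rise of the 117 in the libraries labelled WTHK2. Its values were 176, 156 and 158 CPM in libraries labelled WTHK2, 132, 131 and 132 CPM in LAC, and 106, 106 and 105 CPM in EV. The groups were fully apart, with LAC between the others. The log2 fold change was 0.62 (SE 0.046, adjusted p = 6.41e-09) in the libraries labelled WTHK2 and 0.31 (SE 0.046, adjusted p = 2.01e-05) in LAC (limma). In the same gene order, the 14 listed neighbours of Aurkaip1 had a median log2 fold change of 0.53 in libraries labelled WTHK2 and 0.13 in LAC, beside 0.62 and 0.31 for Aurkaip1 itself. Among called members with 14 such neighbours, the neighbours' median went the same way and was over 0.5 times the member's own log2 fold change, a limit set after the values were seen, for 9 of 43 in the libraries labelled WTHK2 and 12 of 44 in LAC. The 9 were Aurkaip1, Aurkc, Cenpe, Cenpf, Cep170, Cep78, Ect2, Smc3 and Smc5. The 12 were Anapc11, Anapc2, Aurkc, Cdc16, Cenpf, Cenpx, Cep164, Ect2, Ncapd3, Smc1a, Smc3 and Stag2. The share over all genes was not counted, and the part of position was not tested. Between the libraries labelled WTHK2 and LAC the limit was passed by 3 of 12, which were Aurkaip1, Smc3 and Cep250. The neighbours of Cep250 had a median of -0.15 there, and those of Cep78 a median of -0.13 in the libraries labelled WTHK2 against EV.

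**Figure D4:**
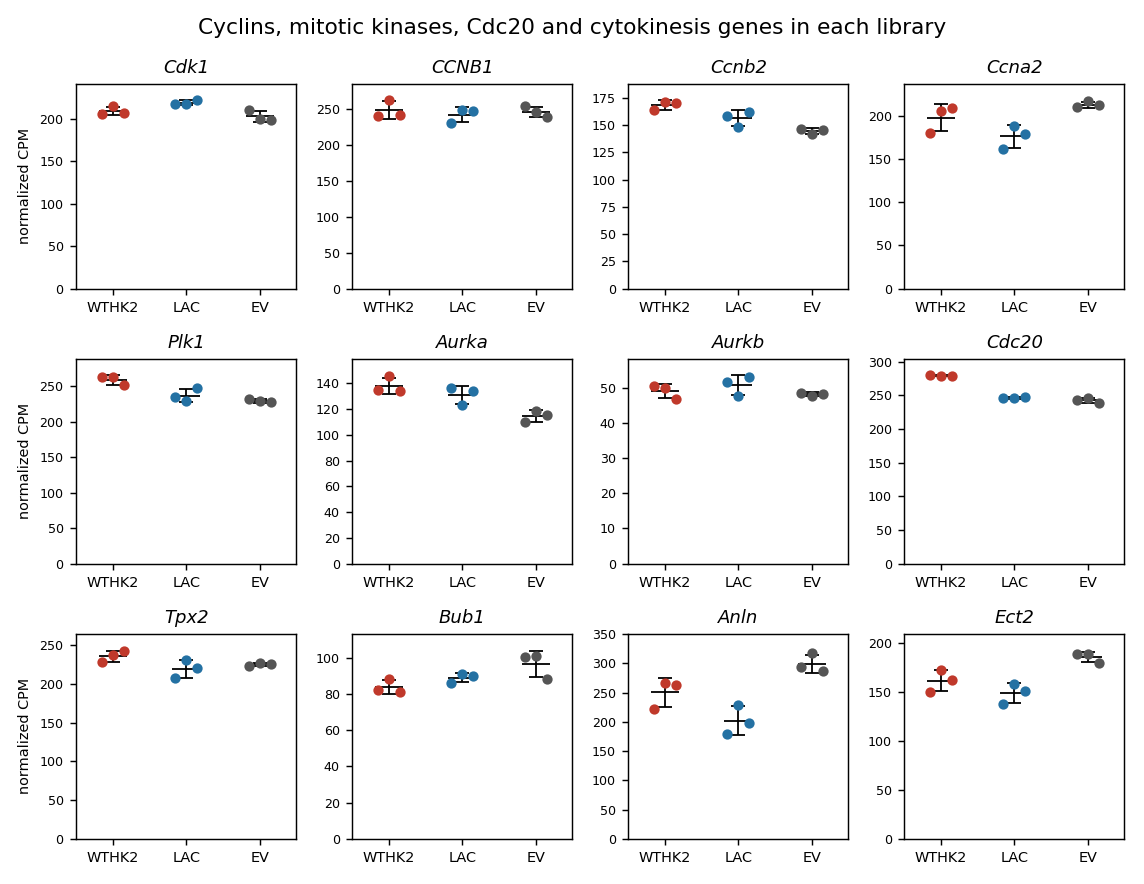
Normalized CPM (vertical axes, from 0) of Cdk1, cyclins, mitotic kinases, Cdc20, Tpx2, Bub1 and 2 cytokinesis genes in the WTHK2, LAC and EV libraries. Each point is a library, and bars are the mean ± SD of 3 libraries. Cdc20 averaged 279 ± 0.541 CPM in WTHK2, 246 ± 1.19 CPM in LAC and 243 ± 3.79 CPM in EV, and CCNB1 249 ± 12.6 CPM in WTHK2, 243 ± 10.1 CPM in LAC and 247 ± 7.30 CPM in EV.

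The spindle checkpoint showed few changes: of 11 members, 1 rose and 1 fell in the libraries labelled WTHK2, and 1 rose and 2 fell in LAC. That is 18.2% and 27.3% called, against 46.4% and 49.5% of all genes. Bub1, the kinase that recruits checkpoint proteins to kinetochores, had 82.0, 88.0 and 81.1 CPM in libraries labelled WTHK2, 86.1, 90.9 and 89.9 CPM in LAC, and 100.1, 101 and 88.2 CPM in EV. It fell in libraries labelled WTHK2 with no overlap (-0.20, adjusted p = 0.00635) and did not pass in LAC (-0.11, adjusted p = 0.102). Bub1b, which codes for BubR1 of the inhibitory complex, had 189.5, 187 and 184 CPM in libraries labelled WTHK2, 169.6, 179 and 172 CPM in LAC, and 187, 192 and 186 CPM in EV, and fell in LAC (-0.12, adjusted p = 0.0187).

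Knl1, the kinetochore platform for Bub proteins, averaged 77.8 ± 5.43 CPM in libraries labelled WTHK2, 75.2 ± 2.58 CPM in LAC and 84.9 ± 3.52 CPM in EV and also fell in LAC (-0.17, adjusted p = 0.0161). Mad2l2, named for its likeness to Mad2 but known for its part in translesion DNA synthesis, had 57.8, 59.5 and 58.0 CPM in libraries labelled WTHK2, 57.7, 57.3 and 60.4 CPM in LAC, and 50.3, 52.0 and 51.2 CPM in EV. It rose, with log2 fold changes of 0.19 (adjusted p = 0.00781) in libraries labelled WTHK2 and 0.19 (adjusted p = 0.00713) in LAC. Mad2l1, the Mad2 of the checkpoint, averaged 133 ± 8.65 CPM in libraries labelled WTHK2, 138 ± 3.47 CPM in LAC and 139 ± 5.09 CPM in EV and did not pass, and neither did Ttk, MAD1L1, Bub3, Zw10, Zwilch or Zwint. After rescaling, 3 checkpoint genes rose and 0 fell in LAC, against 1 and 2. Checkpoint calls in LAC that did not pass without 1 library or after rescaling were Bub1b without EV 2, LAC 1 or LAC 3 or after rescaling (0.117) and Knl1 without EV 1, EV 2 or LAC 1 or after rescaling (0.0760).

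Centromere and kinetochore genes went both ways. Of 22 members, 3 rose and 4 fell in the libraries labelled WTHK2, and 8 rose and 2 fell in LAC. The share called was 31.8% and 45.5%, against 46.4% and 49.5% of all genes, which also went both ways. Cenpf, a large protein of the outer kinetochore, had 215, 197 and 198 CPM in libraries labelled WTHK2, 192, 208 and 202 CPM in LAC, and 247, 236 and 226 CPM in EV. Its log2 fold changes were -0.22 (adjusted p = 6.14e-04) in libraries labelled WTHK2 and -0.24 (adjusted p = 2.75e-04) in LAC, without overlap. Cenpe, the kinetochore kinesin, had 394, 379 and 343 CPM in libraries labelled WTHK2, 347, 380.2 and 350.0 CPM in LAC, and 423, 410.0 and 394 CPM in EV, with -0.14 (adjusted p = 0.0208) in libraries labelled WTHK2, where it overlapped EV, and -0.19 (adjusted p = 0.00263) in LAC. Cenpf and Cenpe are on the list of genes for long proteins, whose medians were -0.23 in libraries labelled WTHK2 and -0.28 in LAC. Cenpi and Cenpq, of the inner kinetochore, also fell in libraries labelled WTHK2 (-0.19 and -0.15, adjusted p = 0.0384 and 0.0333), and did not pass in LAC.

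Genes of the inner kinetochore and of the Ndc80 complex were among the rises. Cenpt, a histone-fold subunit that ties the inner to the outer kinetochore, had 80.3, 77.1 and 81.3 CPM in libraries labelled WTHK2, 83.7, 76.4 and 80.7 CPM in LAC, and 68.0, 71.8 and 71.2 CPM in EV, with log2 fold changes of 0.18 (adjusted p = 0.00930) in libraries labelled WTHK2 and 0.19 (adjusted p = 0.00554) in LAC. Cenps and Cenpx are histone-fold partners of each other. Cenps averaged 63.8 ± 2.59 CPM in libraries labelled WTHK2, 67.2 ± 4.88 CPM in LAC and 57.6 ± 1.64 CPM in EV, and Cenpx averaged 25.3 ± 3.45 CPM in libraries labelled WTHK2, 24.97 ± 0.648 CPM in LAC and 20.8 ± 0.899 CPM in EV. Cenpx rose, with log2 fold changes of 0.26 (adjusted p = 0.0230) in libraries labelled WTHK2 and 0.25 (adjusted p = 0.0257) in LAC, and Cenps passed in LAC (0.22, adjusted p = 0.00549) but not in libraries labelled WTHK2 (0.14, adjusted p = 0.0541). Spc24, of the microtubule-binding Ndc80 complex, averaged 69.9 ± 3.51 CPM in libraries labelled WTHK2, 71.4 ± 9.12 CPM in LAC and 60.8 ± 4.43 CPM in EV and rose, with log2 fold changes of 0.20 (adjusted p = 0.0348) in libraries labelled WTHK2 and 0.22 (adjusted p = 0.0174) in LAC. Its complex partners Spc25 and Ndc80 rose in LAC (0.15 and 0.14, adjusted p = 0.0332 and 0.0214), and Nuf2 passed in neither. Cenph, of the inner kinetochore, and Cenpv also rose in LAC (0.18 and 0.23, adjusted p = 0.0228 and 0.0147). CENPA, the histone variant that marks centromeres, averaged 53.7 ± 3.86 CPM in libraries labelled WTHK2, 51.6 ± 0.919 CPM in LAC and 51.1 ± 2.97 CPM in EV and did not pass. Counts for this role moved with single libraries and with the scale. In LAC 3 rose without LAC 3, 4 without EV 1 or without EV 2, and 5 without EV 3, against 8, and 10 rose after rescaling. In libraries labelled WTHK2, 1 rose and 1 fell without WTHK2 3, 1 rose and 2 fell without EV 1, and 6 rose and 1 fell after rescaling, against 3 and 4. The calls that did not pass were, in libraries labelled WTHK2, Cenpe without EV 1, EV 2 or WTHK2 3 or after rescaling (0.167); Cenpi without EV 1, EV 2, WTHK2 2 or WTHK2 3 or after rescaling (0.160); Cenpq without EV 2, EV 3, WTHK2 1 or WTHK2 3 or after rescaling (0.103); Cenpt without EV 1 (0.0515); Cenpx without EV 3, WTHK2 2 or WTHK2 3 (0.133); and Spc24 without EV 1, EV 2, WTHK2 1 or WTHK2 3 (0.140). In LAC those calls were Cenph without EV 1 or LAC 3 (0.0728); Cenpv without EV 1, LAC 1 or LAC 3 (0.107); Cenpx without EV 2, EV 3, LAC 2 or LAC 3 (0.0933); Ndc80 without EV 2, EV 3 or LAC 1 (0.0844); Spc24 without EV 1, EV 2 or LAC 3 (0.157); and Spc25 without EV 1, EV 2, EV 3, LAC 2 or LAC 3 (0.0964).

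Few spindle assembly genes passed, with 1 of 8 higher and 0 lower in each comparison (12.5% called, against 46.4% and 49.5% of all genes). That gene was Haus5, a subunit of augmin, which recruits γ-tubulin to the sides of spindle microtubules. It had 30.5, 27.6 and 26.4 CPM in libraries labelled WTHK2, 31.9, 29.0 and 30.3 CPM in LAC, and 19.4, 22.8 and 24.0 CPM in EV, all values of both groups above EV. The log2 fold changes were 0.34 (adjusted p = 0.00305) in libraries labelled WTHK2 and 0.45 (adjusted p = 2.71e-04) in LAC. Tpx2, the activator of Aurora A on the spindle, averaged 236 ± 7.22 CPM in libraries labelled WTHK2, 219.8 ± 11.7 CPM in LAC and 225 ± 2.48 CPM in EV, and Nusap1, a microtubule bundler, averaged 135 ± 9.78 CPM in libraries labelled WTHK2, 145 ± 3.27 CPM in LAC and 141 ± 2.81 CPM in EV. Neither passed, nor did Haus2, Haus3, Haus4, Haus7 and Haus8.

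Cytokinesis genes were lower in 2 of 3 cases in each comparison. That is 66.7%, against 25.4% and 27.1% of all genes, and rests on 3 genes. Anln codes for anillin, which links actin, myosin and septins in the cleavage furrow, and had 221, 266 and 263 CPM in libraries labelled WTHK2, 179, 229 and 198 CPM in LAC, and 293, 317 and 287 CPM in EV. EV was highest throughout, and LAC 2 lay above WTHK2 1. Its log2 fold change was -0.57 (SE 0.071, adjusted p = 3.85e-06) in LAC and -0.26 (SE 0.071, adjusted p = 0.00516) in the libraries labelled WTHK2 (limma). Ect2, the activator of RhoA at the furrow, had 150.2, 172 and 162 CPM in libraries labelled WTHK2, 138, 158 and 150.4 CPM in LAC, and 188, 189 and 179.7 CPM in EV, and fell, with log2 fold changes of -0.32 (adjusted p = 5.99e-05) in LAC and -0.20 (adjusted p = 0.00362) in libraries labelled WTHK2. Racgap1, of the centralspindlin complex that recruits Ect2, averaged 159 ± 4.51 CPM in libraries labelled WTHK2, 154 ± 1.02 CPM in LAC and 155 ± 0.760 CPM in EV, and did not pass.

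Among 27 centrosomal Cep genes, 0 rose and 6 fell in the libraries labelled WTHK2 (median log2 fold change -0.085), and 1 rose and 5 fell in LAC (median 0.0098). The share lower was 22.2% and 18.5%, against 25.4% and 27.1% of all genes. The share higher was 0% and 3.7%, against 21.0% and 22.4%. Cep350, a large centriolar and microtubule-binding protein, had the largest fall of the 117 in both comparisons, and is on the list of genes for long proteins. It had 26.9, 29.7 and 26.96 CPM in libraries labelled WTHK2, 23.9, 35.2 and 27.7 CPM in LAC, and 43.5, 46.3 and 45.7 CPM in EV. EV stood apart from all other libraries, with log2 fold changes of -0.68 (SE 0.097, adjusted p = 1.54e-05) in the libraries labelled WTHK2 and -0.64 (SE 0.097, adjusted p = 2.77e-05) in LAC (limma). Cep170b, related to the centriole appendage protein Cep170, had 82.0, 85.9 and 87.7 CPM in libraries labelled WTHK2, 96.0, 93.5 and 82.5 CPM in LAC, and 118, 114 and 113 CPM in EV, and fell, with log2 fold changes of -0.43 (adjusted p = 3.93e-06) in libraries labelled WTHK2 and -0.34 (adjusted p = 4.27e-05) in LAC. Cep170 averaged 133 ± 5.24 CPM in libraries labelled WTHK2, 125 ± 8.16 CPM in LAC and 148 ± 3.30 CPM in EV and fell, with log2 fold changes of -0.24 (adjusted p = 4.97e-04) in LAC and -0.15 (adjusted p = 0.0164) in libraries labelled WTHK2.

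Cep164, of the appendages of the mother centriole, fell in LAC (-0.22, adjusted p = 0.00452) and did not pass in libraries labelled WTHK2 (-0.14, adjusted p = 0.0646). Cep78, Cep162 and Cep192 fell in libraries labelled WTHK2 (-0.24, -0.19 and -0.18), and did not pass in LAC. Cep295, of centriole maturation, rose in LAC (0.15, adjusted p = 0.0338). Single libraries mattered here too: 3 Cep genes fell in libraries labelled WTHK2 without EV 1, without EV 2 or without WTHK2 3. After rescaling, 3 fell and 1 rose in those labelled WTHK2 while 5 fell and 5 rose in LAC, against 6 fell and 0 rose, and 5 fell and 1 rose. The Cep calls that did not pass in libraries labelled WTHK2 were Cep162 without EV 1, EV 2 or WTHK2 3 or after rescaling (0.0658); Cep170 without EV 1, EV 2 or WTHK2 3 or after rescaling (0.0709); Cep192 without EV 1, EV 2, EV 3, WTHK2 2 or WTHK2 3 or after rescaling (0.232); and Cep78 without EV 3 or WTHK2 2 (0.0889). Those of LAC included Cep295 without EV 1, EV 2, EV 3, LAC 1 or LAC 3 (0.0843).

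Other genes of mitosis that the name stems leave out were read from a hand-written list, made with earlier results known. Of 74 such genes with a row, 12 rose and 25 fell in the libraries labelled WTHK2 (median -0.058), and 10 rose and 21 fell in LAC (median -0.033). In the libraries labelled WTHK2, 33.8% fell and 16.2% rose, against 25.4% and 21.0% of all genes. In LAC 28.4% fell, near the 27.1% of all genes, and 13.5% rose, against 22.4%. Regulators of cohesin were among the falls. Pds5a, which governs cohesin release, had 162, 181 and 170.0 CPM in libraries labelled WTHK2, 178, 183 and 176 CPM in LAC, and 226, 231 and 214 CPM in EV, with log2 fold changes of -0.39 (adjusted p = 1.14e-06) in libraries labelled WTHK2 and -0.32 (adjusted p = 1.0e-05) in LAC. Nipbl, the cohesin loader, had 111, 116 and 111 CPM in libraries labelled WTHK2, 107, 108 and 103 CPM in LAC, and 140.1, 144 and 134 CPM in EV, with -0.30 (adjusted p = 2.22e-05) in libraries labelled WTHK2 and -0.39 (adjusted p = 2.03e-06) in LAC. In both genes all 6 libraries lay below EV.

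A further 4 cohesin partners were looked up after the values of the complex were seen. Rad21, the subunit that closes the ring, fell, with log2 fold changes of -0.15 (adjusted p = 0.0143) in libraries labelled WTHK2 and -0.31 (adjusted p = 2.87e-05) in LAC. Wapl, the releasing factor, had log2 fold changes of -0.29 and -0.30, and Pds5b, a relative of Pds5a, -0.23 and -0.30, with both genes passing in both comparisons. Mau2, the partner of Nipbl, rose, with a log2 fold change of 0.23 (adjusted p = 0.0141) in libraries labelled WTHK2 and did not pass in LAC (0.16, adjusted p = 0.0745). In libraries labelled WTHK2, Rad21 did not pass without EV 1 or WTHK2 1 or after rescaling (0.0872), and Mau2 without EV 1 or WTHK2 1 (0.0714). Other cohesin genes of the list were mixed. Pttg1, which codes for the protector against cohesin cleavage, rose in libraries labelled WTHK2 (0.34, adjusted p = 4.29e-04) and in LAC (0.29, adjusted p = 0.00138). Esco1 and Cdca5 fell in libraries labelled WTHK2 (-0.31 and -0.25) and did not pass in LAC (-0.14 and -0.011). Espl1 fell in LAC (-0.21) and did not pass in libraries labelled WTHK2 (-0.081), and Esco2 fell in both (-0.23 and -0.17).

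Outside cohesin, Nek9, a kinase upstream of centrosome separation, had 71.0, 81.9 and 79.3 CPM in libraries labelled WTHK2, 76.2, 74.3 and 80.8 CPM in LAC, and 109.9, 106 and 100.5 CPM in EV, and fell, with log2 fold changes of -0.44 (adjusted p = 5.14e-06) in libraries labelled WTHK2 and -0.44 (adjusted p = 5.81e-06) in LAC. Tubg1, γ-tubulin of the centrosome, averaged 233 ± 3.23 CPM in libraries labelled WTHK2, 218 ± 12.5 CPM in LAC and 189.7 ± 2.60 CPM in EV and rose, with log2 fold changes of 0.29 (adjusted p = 1.39e-05) in libraries labelled WTHK2 and 0.20 (adjusted p = 6.94e-04) in LAC. Ube2c, the ubiquitin-conjugating enzyme that serves the anaphase promoting complex, had 348, 353 and 354 CPM in libraries labelled WTHK2, 415, 388 and 414 CPM in LAC, and 323, 335 and 338 CPM in EV. It rose in LAC (0.29, adjusted p = 4.71e-06) and did not pass in libraries labelled WTHK2 (0.082, adjusted p = 0.0687).

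The libraries labelled WTHK2 were then compared directly with LAC, in which the EV libraries enter only the shared estimate of the spread. Few members differed: 5 were higher and 7 lower in the libraries labelled WTHK2, 10.3% of 117, against 16.1% of all genes called in that comparison (8.37% higher and 7.76% lower). The median log2 fold change of the members was -0.036 and that of all genes 0.0041. Groups did not overlap for 24 members (20.5%), against 29.0% of all genes. Of the 12 members called, Ncapg2 had the largest difference among the lower ones (-0.34, SE 0.050, adjusted p = 5.66e-05) and Anln among the higher ones (0.31, SE 0.071, adjusted p = 0.00432), though values of Anln overlapped between the groups. Values of Ccna2 and Smc5, also called, overlapped between the groups too.

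The other higher members in the libraries labelled WTHK2 than in LAC were Aurkaip1 (0.31, SE 0.046, adjusted p = 8.10e-05), Cdc20, Ccna2 (0.17, SE 0.054, adjusted p = 0.0378) and Plk1 (0.13, SE 0.038, adjusted p = 0.0267). In a fit of the 6 libraries alone, neither Ccna2 nor Plk1 passed. The lower ones, beside Ncapg2, were Smc3 (-0.15, SE 0.037, adjusted p = 0.00893), Smc5 (-0.25, SE 0.067, adjusted p = 0.0154), Plk2 (-0.24, SE 0.050, adjusted p = 0.00202), Cenpq of the inner kinetochore (-0.23, SE 0.055, adjusted p = 0.00690), Cep250 of the link between centrosomes (-0.23, SE 0.059, adjusted p = 0.0101) and Cep120 of centriole growth (-0.22, SE 0.065, adjusted p = 0.0216). Calls between these groups that did not pass without 1 library were Ccna2 without EV 1, EV 2, EV 3, WTHK2 2, WTHK2 3, LAC 1 or LAC 3 (0.196); Cep120 without WTHK2 2, WTHK2 3, LAC 2 or LAC 3 (0.158); Cep250 without WTHK2 2 or WTHK2 3 (0.0762); Plk1 without WTHK2 1, WTHK2 2, LAC 1 or LAC 2 (0.0930); Smc3 without WTHK2 3 (0.0640); and Smc5 without WTHK2 3 (0.128). Cenpq had 58.0, 60.4 and 57.3 CPM in libraries labelled WTHK2, 71.6, 70.4 and 64.9 CPM in LAC, and 63.0, 65.6 and 66.5 CPM in EV, and Cep250 had 102, 83.1 and 87.6 CPM in libraries labelled WTHK2, 106, 108 and 106 CPM in LAC, and 97.6, 96.7 and 99.4 CPM in EV. In Cep250, WTHK2 1 stood above the other libraries of its group and below all of LAC.

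Of the other mitotic genes, 7 of 74 were higher and 8 lower in the libraries labelled WTHK2 than in LAC (20.3%, against 16.1% of all genes). Mybl2, a transcription factor of S phase and mitosis, had 215, 217 and 221 CPM in libraries labelled WTHK2, 262, 263 and 289 CPM in LAC, and 278, 279 and 269 CPM in EV, and was lower than in LAC (-0.32, SE 0.041, adjusted p = 1.36e-05) and than in EV (-0.34, adjusted p = 2.23e-06). Kntc1, a subunit of the complex that brings dynein to kinetochores, averaged 116 ± 8.99 CPM in libraries labelled WTHK2, 139.8 ± 4.21 CPM in LAC and 145 ± 7.20 CPM in EV, and was lower than in LAC, with a log2 fold change of -0.27 (adjusted p = 0.00124). Kif18b, a kinesin that shortens microtubules, averaged 231 ± 1.70 CPM in libraries labelled WTHK2, 198 ± 6.41 CPM in LAC and 194 ± 1.93 CPM in EV, and was higher than in LAC, with a log2 fold change of 0.22 (adjusted p = 2.76e-04). Ube2c was lower than in LAC (-0.20, adjusted p = 4.98e-04).

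**Figure D5:**
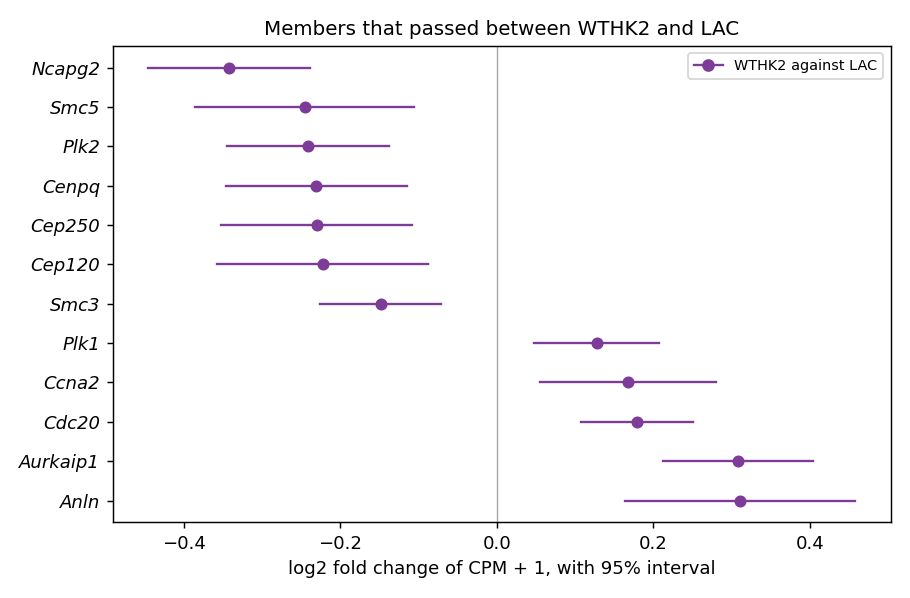
Log2 fold changes of CPM + 1 with 95% intervals (horizontal axis) of the 12 members that passed an adjusted p of 0.05 between WTHK2 and LAC; values above 0 are higher in WTHK2. Ncapg2 is lowest at -0.34 and Anln highest at 0.31.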

How the data were processed

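The deposited table holds normalized CPM (read counts scaled by the authors to library size) of 6753 genes in 9 mRNA libraries. Tools that the submitters' processing notes name, with no role or order, are cutadapt 1.18, FastQC 0.11.8, edgeR 3.8, STAR 2.7.0a and featureCounts 2.0.1. No build or annotation is named in the labels read here. A column held 80.3% to 81.4% of the sum that CPM of all genes would give, and every value was a whole multiple of its library's step within a tolerance of 0.01, which gave the effective library sizes.

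Values were taken as log2(CPM + 1), so a fold change understates the change of low genes. A filter at a mean of 1 CPM removed 0 genes, and 0 sample columns went unused. limma 3.58.1 (R 4.3.3), with a trended prior, was fitted to all genes and all 9 libraries with no covariates. Two-sided p-values were adjusted by Benjamini-Hochberg over 6753 genes, and a gene was called at an adjusted p under 0.05. Adjusted p-values throughout are from this fit. Summaries used pandas 2.3.3, numpy 2.4.6 and scipy 1.17.1 under Python 3.11.15, and plots matplotlib 3.10.9. CPM is not per length, so levels were not compared between genes.

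The members and lists were chosen with earlier results of these data known, and the list of genes for long proteins was written from general knowledge, not from an annotation. Named genes were a fixed cell cycle core (Birc5 and Prc1 were not analysed here), up to 4 called genes with the smallest adjusted p in each role and comparison, and the 10 largest rises and falls (5 between WTHK2 and LAC) whose groups do not overlap. Of the other mitotic genes, up to 4 per comparison were named. Genes named to complete a role, and Rad21, Wapl, Pds5b, Mau2, Pttg1, Esco1, Esco2, Cdca5 and Espl1, were named after their values were seen. A gene that the rule names is not reported here. Gene order came from RefSeq genes of CriGri-PICRH-1.0, in which 91.0% of the 6753 genes were placed by symbol.

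Alternatives were pseudocounts of 0.25 and 4, no filter, a filter at a mean of 50 CPM, rescaling of each library to the same median, the 6 libraries of a comparison alone, the replicate number as a block, and each library left out in turn. Added after seeing the data were limma's voom on recovered reads and a fit without replicate 1 of both WTHK2 and LAC. The statistics were tested on simulated data, in which 100 of 6753 genes were changed at each of 2 folds. At 1.2-fold 70% were recovered and at 1.5-fold 98%, and 7.69% of calls were false. Far fewer genes were changed there than were called here. A gene that did not pass may still have changed by a small fold.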

Additional observations from a re-analysis of the deposited data

How the results depend on the processing

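No called log2 fold change turned its sign under the alternatives tried, but the balance of calls did. After rescaling, 21 members rose and 18 fell in the libraries labelled WTHK2, against 16 and 27, and 33 rose and 20 fell in LAC, against 23 and 26. Rescaling moved the median of all genes upward as well, and their balance of calls after it was not counted. Values near 0 that did not pass also turned, such as Ncapd2 in the libraries labelled WTHK2 (-0.0036, and 0.032 after rescaling). Medians near 0 did so too: that of the kinetochore genes in the libraries labelled WTHK2, 0.033, was -0.0035 without WTHK2 1, and that of the Cep genes in LAC, 0.0098, was -0.013 without EV 3. In LAC against EV, a filter at a mean of 50 CPM left 80 members, of which 15 rose, against 23 of 117. Between the libraries labelled WTHK2 and LAC, a fit of those 6 libraries alone left 3 higher members, against 5. The added fit without replicate 1 of both groups gave 11 lower members there, against 7, and 30 lower members in the libraries labelled WTHK2 against EV, against 27. Voom on the recovered reads, also added after seeing the data, called 17 higher and 27 lower in the libraries labelled WTHK2, and 23 higher and 26 lower in LAC.

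With 1 library left out at a time, 13 to 18 members rose and 17 to 29 fell in the libraries labelled WTHK2 against EV. The lowest count of falls, 17, came without WTHK2 3. In LAC, 12 to 26 rose and 21 to 28 fell, with 12 rises without EV 2 and 13 without LAC 3. Between the libraries labelled WTHK2 and LAC, 3 to 8 members were higher and 3 to 12 lower. There, 3 were higher without WTHK2 2 or without LAC 1 and 8 without LAC 2, while 3 were lower without WTHK2 3 and 12 without WTHK2 1. Why these counts move was not tested.

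The replicate numbers were not taken as pairing the samples. Deviations of same-numbered libraries from their group means correlated at 0.08, 0.14 and -0.01 between WTHK2 and EV, at 0.02, 0.21 and 0.03 between LAC and EV, and at 0.44, 0.25 and 0.07 between WTHK2 and LAC. Libraries of different number correlated at -0.20 to 0.13, -0.20 to 0.18 and -0.33 to 0.19 in the same order. A link by replicate number between WTHK2 and LAC is therefore not excluded. With the replicate number as a block, 18 members rose and 35 fell in the libraries labelled WTHK2, 26 rose and 28 fell in LAC, and 8 were higher and 10 lower between those groups, against 5 and 7 without the block.

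Some planned checks were not run. edgeR on recovered reads was replaced by voom, and an adjustment for protein length had no protein table here. The precision is limited by 3 libraries a group, whose origin in separate cultures is not stated.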
